A study of Mus musculus with 6 samples.

Results

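The Hox genes of the mouse ovary at 16.5 dpc are described here. Members were the protein-coding rows of the deposited expression table whose gene name was Hoxa, Hoxb, Hoxc or Hoxd followed by digits only. The rule found 40 rows of 39 gene symbols among 54532 genes, of which 22046 were protein-coding. The extra row arose because *Hoxd4* was listed under 2 overlapping gene identifiers, ENSMUSG00000115956 and ENSMUSG00000101174. RNA of whole ovaries of C57BL/6 mice was sequenced in 3 control (Ctrl) and 3 conditional knockout (cKO) libraries. The cKO mice carried *Srsf1* Fl/Fl alleles and the *Stra8-GFPCre* transgene, which is active in germ cells once the *Stra8* promoter is on, and somatic cells are not its target. The labels called the Ctrl mice wild type and stated no floxed allele or transgene for them. SRSF1 is a splicing factor, and the comparison asked how its loss in oocytes changed the ovarian transcriptome. The protocol text of the labels names retina, whereas the tissue field and the methods name ovary, and the ovarian genes *Foxl2*, *Wt1* and *Gata4* had mean levels of 56.7, 68.2 and 97.1 FPKM in Ctrl.

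Hox genes encode homeodomain transcription factors that give cells their position along the head-to-tail axis of the embryo. They lie in 4 clusters, HoxA to HoxD, and are numbered by paralog group from the 3′ end of a cluster (anterior group, active early and towards the head) to the 5′ end (posterior group, active late and towards the tail). Polycomb proteins keep Hox genes silent, Trithorax proteins keep them active, and PBC and MEIS proteins bind DNA together with Hox proteins. In the female reproductive tract, *Hoxa9*, *Hoxa10*, *Hoxa11* and *Hoxa13* are known to be expressed in order from the oviduct to the vagina.

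The values were FPKM, that is, fragments scaled by both gene length and library size, so levels of different genes can be compared. Whole reads could be recovered from 100% of the values, and the reads on genes numbered 15548757 to 16756795 in Ctrl and 14212164 to 16784241 in cKO. The library size behind the FPKM was 0.965 times these reads in Ctrl 1 and 1.04 times in Ctrl 3. It was therefore not the plain read total in every library, and how it was set is not stated. On a gene of 2500 bases, 3 reads equalled between 0.0687 and 0.0845 FPKM. Intervals of read ratios given below cover counting error only, not the spread between libraries. The targeted gene *Srsf1* was at 80.2, 70.1 and 63.1 FPKM in Ctrl and at 32.4, 37.0 and 36.4 in cKO. It was lower in all 3 cKO libraries, by -0.99 on the log2 scale (SE 0.13, limma p = 0.000158, adjusted p = 0.497, exact permutation p = 0.1). The libraries were labelled as separate samples and the methods call them biological replicates, and p-values measure only the spread between these libraries. In whole ovaries, fewer cells of a type and less RNA per cell cannot be told apart.

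The HoxA cluster lies on the minus strand of chr6:52155590-52260880 (GRCm38), a span of 105 kb. HoxB lies on the plus strand of chr11:96194316-96368256 (174 kb), HoxC on the plus strand of chr15:102921103-103036852 (116 kb), and HoxD on the plus strand of chr2:74668310-74765142 (96.8 kb). Of the 40 rows, 39 had an identifier in the GENCODE M21 annotation, and 38 had the same coordinates and exon length there. Exons of some neighbours overlap, and whether counting used strand is unstated in the methods and labels. The largest overlap on the same strand was 62.4% of the exon bases of *Hoxd3*, which are shared with *Hoxd4* and Gm28230. On the other strand, 52.9% of *Hoxb3* lies opposite *Hoxb3os*, 35.0% of *Hoxa11* opposite *Hoxa11os* and 25.4% of *Hoxa3* opposite 4 other genes. Reads on these genes and on both *Hoxd4* rows may belong to either partner. How reads on shared bases were counted is not stated either, and leaving them out would lower these levels.

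Hox clusters also hold genes of microRNAs, short RNAs that pair through their seed (bases 2 to 8) with messenger RNAs. The miR-196 and miR-10 sequences are shown because their genes lie between the Hox genes and their seeds are the shared feature that was searched for in Hox messenger RNAs. Mature sequences are from RefSeq (GRCm38.p6), 5′ to 3′, with the seed in capitals. The miR-196a-5p gene copies are *Mir196a-1* at chr11:96265187-96265208 (+), beside *Hoxb9*, and *Mir196a-2* at chr15:102973365-102973386 (+), in HoxC. *Mir196b* is at chr6:52230129-52230150 (-) in HoxA, *Mir10a* at chr11:96317186-96317208 (+) in HoxB and *Mir10b* at chr2:74726074-74726096 (+) in HoxD.
miR-196a-5p: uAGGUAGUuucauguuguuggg
miR-196b-5p: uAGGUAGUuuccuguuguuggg
miR-10a-5p: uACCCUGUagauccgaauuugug
miR-10b-5p: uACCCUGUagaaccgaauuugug

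In the longest annotated 3′ UTR of each gene, the match to the miR-196 seed (ACTACCT, on the transcribed strand) was present in 9 of 39 Hox genes (23.1%), against 1438 of 21124 protein-coding genes (6.81%). Median UTR length was 966 bases for Hox genes and 1085 for all of these genes. Among them were *Hoxa5*, *Hoxb7*, *Hoxc8* and *Hoxa7*, which held 4 matches. The match to the miR-10 seed (ACAGGGT) was present in 4 Hox genes (10.3%) and in 12.9% of all genes. *Hoxb8* held no seed match, yet its UTR window at chr11:96284888-96284909 (+) paired with 21 of the 22 bases of miR-196a-5p, and no other of 21026 genes had a window with 18 or more paired bases. The 3 windows below are printed as genome sequence of the transcribed strand, with seed matches in capitals for *Hoxa7* (chr6:52215210-52215231, -) and *Hoxb7* (chr11:96289784-96289805, +) and all paired bases in capitals for *Hoxb8*. A match is a description of the letters and not evidence of binding.
Hoxb8: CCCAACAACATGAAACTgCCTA
Hoxa7: actactagccctaaACTACCTa
Hoxb7: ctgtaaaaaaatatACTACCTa

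Hox genes were low to moderate in the ovary. The median over the 40 rows was 0.842 FPKM, and over the 26 rows with a mean of at least 0.5 FPKM it was 1.73, against 8.06 over protein-coding genes past the same minimum. Only 7 rows had a mean over 5 FPKM, 18 were over 1 and 22 under 1. No row was at 0 in every library, and 8 were at 0 in at least 1. All 40 rows together held 30579 reads over the 6 libraries. *Hoxd9*, *Hoxc6* and *Hoxd8* alone made up 45.8 to 54.8% of the summed Hox level of a library.

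**Figure D1:**
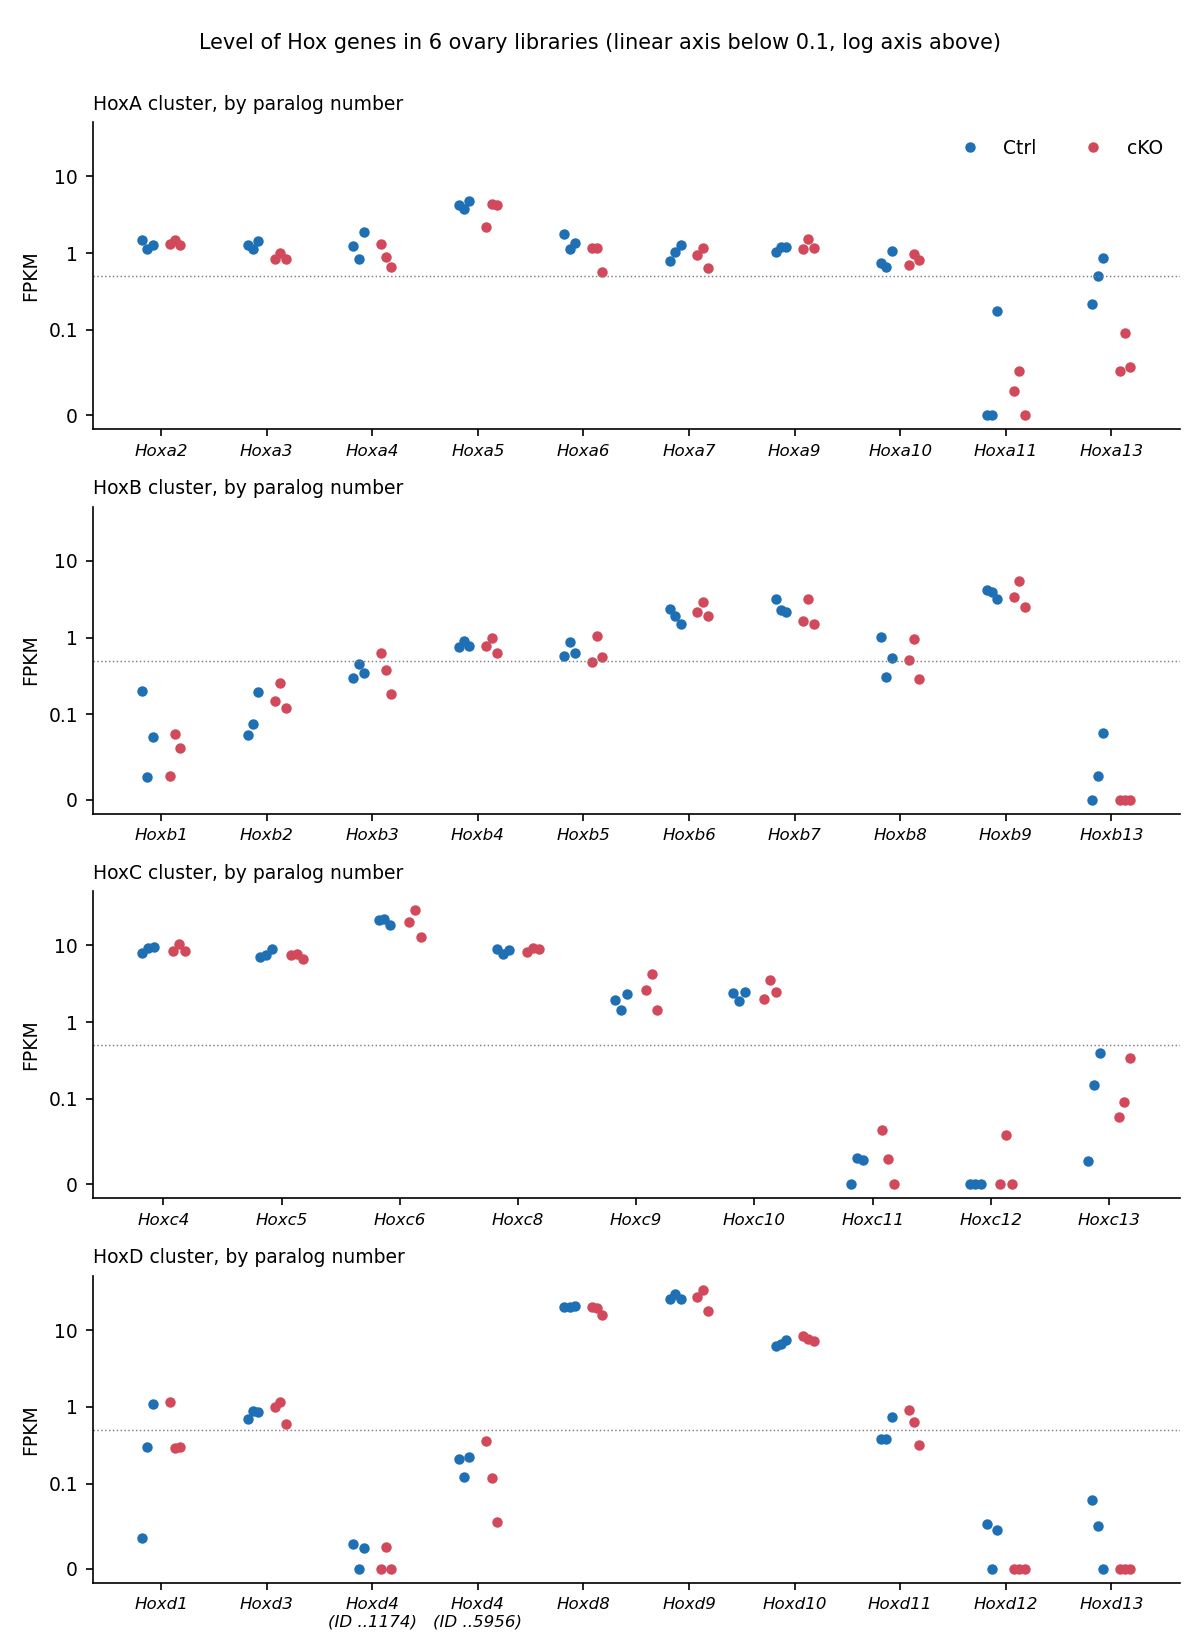
FPKM of Hox genes in the 3 Ctrl (blue) and 3 cKO (red) libraries, by cluster and paralog number, on an axis that is linear below 0.1 and logarithmic above, with the dotted line at 0.5 FPKM, the minimum mean level for testing. Levels are highest at group 6 in HoxC and group 9 in HoxD and fall below 0.1 FPKM at groups 11 and 12 of HoxC in all 6 libraries.

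The 4 clusters contributed unequally. HoxC made up 38.4 to 41.2% of the summed Hox FPKM of a library and HoxD 40.6 to 46.0%, while HoxA made up 7.81 to 11.9% and HoxB 7.18 to 9.95%. By paralog number, the central genes (groups 4 to 8) made up 59.5 to 63.3%, the posterior genes (groups 9 to 13) 33.6 to 37.4% and the anterior genes (groups 1 to 3) 3.04 to 4.29%. These ranges did not overlap between the 2 high and the 2 low clusters or between the classes.

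Anterior genes, which pattern the hindbrain and pharyngeal arches, stayed below 1.5 FPKM in every library. *Hoxa2* was highest among them, at 1.47, 1.15 and 1.29 FPKM in Ctrl and 1.31, 1.48 and 1.27 in cKO. *Hoxa3*, which acts in thymus and parathyroid formation, followed with a mean of 1.09 over the 6 libraries. *Hoxd3* had a mean of 0.857 and *Hoxb3* one of 0.381, both with the overlaps given above. *Hoxd1* had the largest coefficient of variation of the tested genes, 88.8%, from 0.0358 to 1.15 FPKM, with high values in 1 library of each group. *Hoxb1* and *Hoxb2* had means of 0.0778 and 0.148 FPKM.

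Central genes, which pattern the trunk, held the highest levels of HoxC. *Hoxc6* was at 21.2, 21.9 and 18.7 FPKM in Ctrl and at 20.4, 28.7 and 12.8 in cKO, so the cKO libraries spread to both sides of Ctrl. *Hoxc4* was at 7.95, 9.14 and 9.52 FPKM in Ctrl and at 8.56, 10.5 and 8.37 in cKO, and the groups overlapped. *Hoxc8*, a gene of thoracic identity, had the smallest spread of the Hox genes over 5 FPKM, from 7.83 to 9.26, and *Hoxc5* ranged from 6.59 to 8.89. In HoxD, *Hoxd8* was at 19.9, 20.1 and 20.5 FPKM in Ctrl and at 20.2, 19.4 and 15.5 in cKO. Its 3′ neighbour *Hoxd4* had a mean of 0.180 FPKM under its more abundant identifier and 0.0132 under the other, and *Hoxd8* was 107 times the former. The spans of the 2 *Hoxd4* rows overlap each other and, on the same strand, that of Gm28230. Gm28230 had 70, 70 and 86 reads in Ctrl and 55, 61 and 44 in cKO. The level of *Hoxd4*, and with it the size of that step, is therefore uncertain. In HoxA and HoxB, central genes stayed below 5 FPKM. *Hoxa5*, which acts in lung and cervical skeleton formation, was at 4.19, 3.72 and 4.73 FPKM in Ctrl and 2.21, 4.38 and 4.20 in cKO, with only cKO 1 below the others. *Hoxb7* and *Hoxb6* had means of 2.34 and 2.13, *Hoxa6*, *Hoxa4* and *Hoxa7* means of 1.19, 1.14 and 0.976, and *Hoxb4*, *Hoxb5* and *Hoxb8* means of 0.810, 0.698 and 0.607 FPKM.

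Posterior genes fell steeply at some steps between neighbouring groups, but not at all of them. *Hoxd9*, the highest Hox gene, was at 25.7, 29.1 and 25.1 FPKM in Ctrl and at 27.1, 33.7 and 17.9 in cKO, and its mean of 26.4 was 1.37 times that of *Hoxd8*. It was above *Hoxd8* in 6 of 6 libraries, although the 2 ranges overlapped. *Hoxd10* had a mean of 7.24, *Hoxd11* of 0.559, *Hoxd12* of 0.0163 and *Hoxd13*, a gene of digits and genital tubercle, of 0.0217. Each step from *Hoxd9* to *Hoxd12* was lower in 6 of 6 libraries with no overlap of ranges, and *Hoxd12* and *Hoxd13* rested on 4 and 5 reads in all. Steep steps stood near the 5′ end of the other clusters too. *Hoxa10* to *Hoxa11* fell from 0.826 to 0.0426 FPKM, *Hoxc10* to *Hoxc11* from 2.47 to 0.0254 and *Hoxb9* to *Hoxb13*, its next gene in the 5′ direction, from 3.78 to 0.0176. The ranges over the 6 libraries did not overlap at any of these steps. *Hoxb9* was the second highest gene of HoxA and HoxB together, at 4.20, 3.91 and 3.18 FPKM in Ctrl and 3.34, 5.53 and 2.49 in cKO. *Hoxa9* and *Hoxc9* had means of 1.21 and 2.34 FPKM. *Hoxc10* was 1.06 times *Hoxc9*, with overlapping ranges.

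The levels did not fall evenly to the 5′ ends. *Hoxa13* had a mean of 0.296 FPKM and 73 reads, above *Hoxa11* in 6 of 6 libraries, and *Hoxc13*, known for hair follicles, had a mean of 0.182 and 43 reads, above *Hoxc12* in 6 of 6. *Hoxa11*, *Hoxc11*, *Hoxc12* and *Hoxb13* had 10, 5, 1 and 4 reads in all libraries together. Exact sequence shared between Hox genes whose exons do not overlap reached 52 bases, between *Hoxa6* and *Hoxb4*.

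Promoters of 3 Hox genes are printed because they belong to the 2 highest genes of HoxD and to *Hoxa13*, a low gene whose groups of libraries did not overlap. They are from RefSeq (GRCm38.p6), run from 250 bases before to 50 after a start site in the direction of transcription, and have each CpG dinucleotide in capitals. Of the 39 symbols, 22 had promoters in that table, 24 promoters in all. CpG dinucleotides per promoter numbered 14.5 in the median, against 7 over 32851 promoters of all genes. *Hoxa13* had 45, more than 98.1% of all promoters, at chr6:52260831-52261130 (-). *Hoxd9* had 20 at chr2:74697513-74697812 (+) and *Hoxd8* had 6 at chr2:74704365-74704664 (+). The CCAAT motif, searched on both strands, was in 15 of the 24 Hox promoters (62.5%) and in 37.4% of all promoters, TATAAA in 4 (16.7%) and 13.6%, and the PBC and Hox motif TGATTNAT in 2 (8.33%) and 3.22%.
Hoxa13: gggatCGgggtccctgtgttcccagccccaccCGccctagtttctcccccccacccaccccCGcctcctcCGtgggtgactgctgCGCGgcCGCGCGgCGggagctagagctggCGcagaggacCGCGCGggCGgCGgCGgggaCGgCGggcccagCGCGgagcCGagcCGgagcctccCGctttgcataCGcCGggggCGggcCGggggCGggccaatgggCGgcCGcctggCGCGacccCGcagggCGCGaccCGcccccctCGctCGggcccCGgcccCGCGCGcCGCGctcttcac
Hoxd9: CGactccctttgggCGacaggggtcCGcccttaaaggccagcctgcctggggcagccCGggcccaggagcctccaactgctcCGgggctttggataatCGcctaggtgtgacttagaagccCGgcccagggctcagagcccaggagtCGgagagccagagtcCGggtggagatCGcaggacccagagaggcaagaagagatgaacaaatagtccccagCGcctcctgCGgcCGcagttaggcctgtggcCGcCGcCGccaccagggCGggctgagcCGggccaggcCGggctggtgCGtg
Hoxd8: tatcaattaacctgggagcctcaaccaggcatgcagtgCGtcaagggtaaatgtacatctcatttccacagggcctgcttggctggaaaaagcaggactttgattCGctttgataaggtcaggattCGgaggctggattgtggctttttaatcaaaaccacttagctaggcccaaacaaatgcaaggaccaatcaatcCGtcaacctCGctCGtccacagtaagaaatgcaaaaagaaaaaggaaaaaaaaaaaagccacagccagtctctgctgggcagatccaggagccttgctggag

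cKO was compared with Ctrl with limma on log2(FPKM + 1), two-sided, over the 17180 genes averaging at least 0.5 FPKM. The added 1 shrinks the fold change of low genes. No Hox gene rose or fell in cKO at an unadjusted p below 0.05, 0 of 26 tested in either direction. Of all genes tested, 4.43% passed that limit, 2.68% higher and 1.75% lower in cKO. At an adjusted p below 0.05, 0 Hox genes and 0 of all genes passed. A second limma fit, voom on the recovered reads, also gave 0 Hox genes at an unadjusted p below 0.05, against 4.21% of all genes. The smallest unadjusted p of a Hox gene was 0.107, for *Hoxa3*, and adjusted p-values of Hox genes were 0.978 to 0.999. Without the cKO 3 library 1 Hox gene passed the unadjusted limit, *Hoxc9*, at a log2 fold change of 0.59 (limma adjusted p = 1), where 2.47% of all genes passed.

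The intervals show the size of change that these libraries left possible on the scale used. A gene below 1 FPKM in Ctrl cannot reach -1 on the log2(FPKM + 1) scale even when lost entirely. For such genes the lower limit of -1 therefore bounds nothing. The 95% intervals of all 26 tested genes lay between -1 and 1 on the log2(FPKM + 1) scale, and 18 of 26 did under voom. For the 7 genes over 5 FPKM, log2 fold changes were between -0.14 and 0.17 and interval bounds between -0.70 and 0.58. *Hoxd9* had a log2 fold change of -0.06 (SE 0.22), *Hoxc6* of -0.06 (SE 0.27), *Hoxd8* of -0.14 (SE 0.13) and *Hoxc4* of 0.04 (SE 0.14). *Hoxa5* had -0.21 (SE 0.22), *Hoxb9* had -0.04 (SE 0.24), *Hoxb7* had -0.20 (SE 0.24) and *Hoxa2* had 0.03 (SE 0.14). The highest upper bound was that of *Hoxc9*, whose interval ran from -0.36 to 0.99 around a log2 fold change of 0.31, and the widest interval was that of *Hoxd1*, from -0.65 to 0.90.

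**Figure D2:**
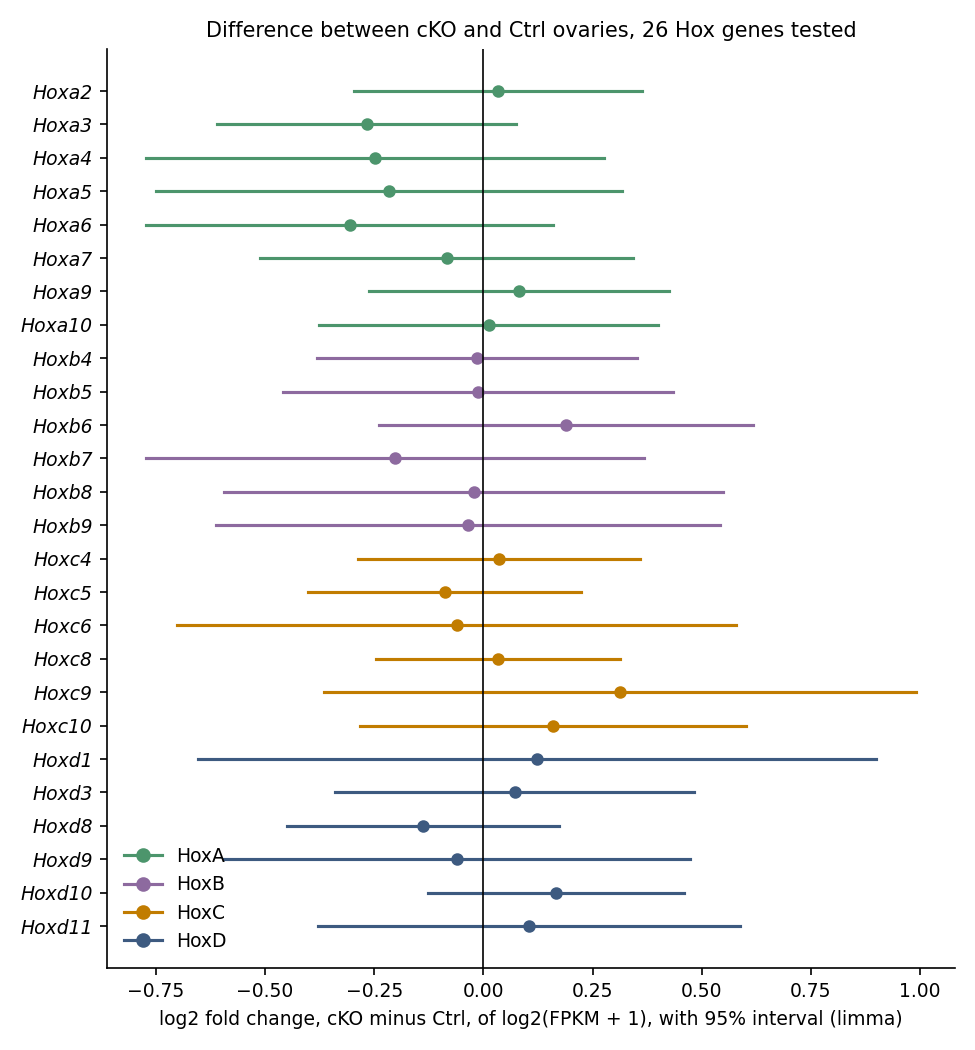
Log2 fold change (cKO minus Ctrl, on the log2(FPKM + 1) scale) of the 26 tested Hox genes by cluster, with 95% intervals from limma. All intervals cross 0 and stay between -1 and 1, but genes below 1 FPKM in Ctrl cannot reach -1 on this scale.

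The 26 genes lay on both sides of 0. Their median log2 fold change was -0.01, the same to 2 decimals as over all genes tested, and 12 of 26 were above 0. By cluster the medians were -0.15 for HoxA (5 of 8 below 0), -0.02 for HoxB, 0.03 for HoxC and 0.09 for HoxD. By class they were 0.05 for anterior, -0.07 for central and 0.09 for posterior genes.

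*Hoxa3* was the 1 tested Hox gene whose groups did not overlap, with the cKO libraries below Ctrl. It was at 1.26, 1.13 and 1.45 FPKM in Ctrl (114, 110 and 152 reads) and at 0.828, 1.02 and 0.831 in cKO (77, 103 and 71 reads). All 3 cKO libraries were lower than each Ctrl library. The log2 fold change was -0.27 (SE 0.14, limma p = 0.107, adjusted p = 0.978, exact permutation p = 0.1), and under voom it was -0.51 (adjusted p = 0.989). An exact permutation test of 3 libraries against 3 cannot give a p below 0.1. Groups did not overlap for 8.68% of all genes tested, 4.10% with cKO below and 4.59% with cKO above, and 1 of 26 Hox genes is near that background.

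*Hoxa13*, a gene of the caudal end of the reproductive tract and of digits, was under the level at which genes were tested. It was at 0.216, 0.4997 and 0.857 FPKM in Ctrl (8, 20 and 37 reads) and at 0.0523, 0.0964 and 0.0570 in cKO (2, 4 and 2 reads). The groups did not overlap, the Ctrl libraries spread widely, and Ctrl 1 had 8 reads against 4 in the highest cKO library. The reads summed to 65 in Ctrl and 8 in cKO, a ratio of 0.127 at equal depth with a counting interval of 0.0526 to 0.265. With no minimum level, the log2 fold change was -0.49 (SE 0.15, limma p = 0.0183, adjusted p = 0.882, exact permutation p = 0.1), where 3.94% of all genes passed the unadjusted limit. With each library left out, it ranged from -0.64 to -0.34 and missed the unadjusted limit narrowly without cKO 1 or cKO 3. Under voom with no minimum, chosen after seeing the data, it was -2.57 (SE 0.77, adjusted p = 0.837), again past the unadjusted limit, where 5.09% of all genes passed. No exon base of *Hoxa13* overlaps another annotated gene.

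Marker genes of limb, external genital and duct tissue were read beside *Hoxa13*. Of the 11 genes listed for limb and external genital mesenchyme, 0 of 5 tested passed the unadjusted limit, and their summed level was 28.1 to 32.1 FPKM in Ctrl and 29.4 to 38.9 in cKO. Among the 6 under the minimum, *Shox2*, a gene of proximal limb, had 14, 21 and 16 reads in Ctrl and 8, 0 and 2 in cKO, and *Alx4*, a gene of anterior limb mesenchyme, had 56, 30 and 60 in Ctrl and 20, 31 and 14 in cKO. Both genes had FPKM that did not overlap between groups, with cKO below, and the other 4 overlapped. Groups did not overlap for 8.68% of all genes tested. That share was not computed for genes under the minimum, so these counts have no background. Summed over 3 libraries, *Tbx4* had 84 reads in Ctrl and 49 in cKO and *Lmx1b* 152 and 65, whereas *Pitx1* had 5 and 14 and *Tbx5* 1 and 3, the higher sums in cKO. No listed gene was at 0 in all libraries. Of the 10 genes of the mesonephros and its ducts, 6 were tested and 1 fell, *Gata3*, a gene of the nephric duct, at 1.46, 1.20 and 1.74 FPKM in Ctrl and 0.585, 0.524 and 0.832 in cKO (log2 fold change -0.58, SE 0.16, limma p = 0.0096, adjusted p = 0.978, exact permutation p = 0.1). Of all genes tested, 1.75% fell. *Gata3* passed the unadjusted limit under each alternative run, with each library left out included. Of the 4 genes under the minimum, *Pax2* had 8, 10 and 11 reads in Ctrl and 15, 20 and 13 in cKO, with cKO above Ctrl and no overlap, and *Wnt7a* had 7, 7 and 5 in Ctrl and 3, 0 and 1 in cKO, with cKO below and no overlap. *Lhx1* and *Wnt9b* overlapped between groups. Summed levels of that list were 44.9 to 52.5 FPKM in Ctrl and 39.7 to 59.8 in cKO, mostly from *Emx2*, and none of its genes was at 0 in all libraries. Their part in the values of *Hoxa13* was not tested.

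Summed over rows, the Hox genes differed more among the cKO libraries than between the groups. For single genes, the median SD within groups of log2(FPKM + 1) was 0.208 over tested Hox genes and 0.220 over all genes tested. The summed Hox level was 128, 130 and 132 FPKM in Ctrl and 128, 155 and 101 in cKO, or 130 ± 2.15 and 128 ± 27.1 (SD, n = 3). HoxC summed to 49.6, 49.8 and 51.2 FPKM in Ctrl and 49.4, 64.0 and 41.0 in cKO. HoxD summed to 53.3, 57.5 and 56.0 in Ctrl and 58.9, 63.0 and 41.8 in cKO, and HoxA to 12.7, 11.5 and 15.7 in Ctrl and 10.01, 12.8 and 10.5 in cKO. Library cKO 2 was highest and cKO 3 lowest of the 6 for HoxB, HoxC and HoxD.

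**Figure D3:**
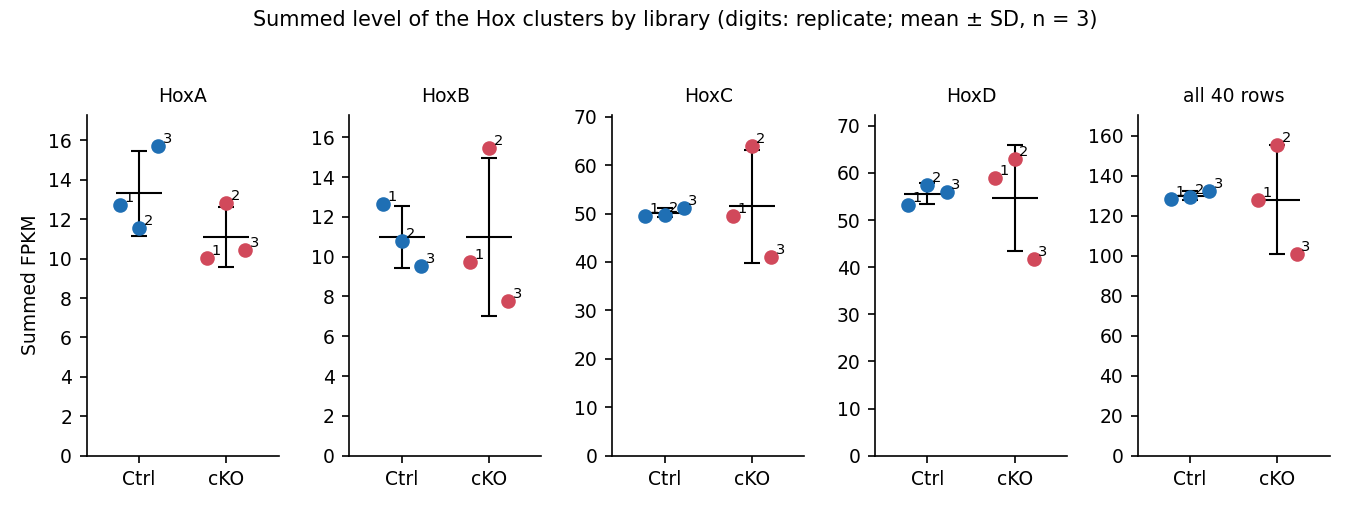
Summed FPKM of the Hox rows of each cluster and of all 40 rows in each library, with mean ± SD over 3 libraries and digits for the replicate. The Ctrl sums of all rows lie between 128 and 132 FPKM, and cKO 2 (155) and cKO 3 (101) lie on either side of them.

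Gene by gene, the same ordering was seen for part of the tested Hox genes. Of the 26 tested Hox genes, 14 were highest of the 6 libraries in cKO 2, where 22.3% of all genes tested were highest, and 0 were lowest there. In cKO 3, 13 were lowest, against 22.8% of all genes tested, and 0 were highest. Ctrl 3 was highest for 7 Hox genes, against 13.5% of all genes tested. Ctrl 2 was lowest for 5, against 13.3%. Genes of pregranulosa and ovarian surface cells summed to 371, 487 and 373 FPKM in cKO 1, 2 and 3, all 8 of them tested and 0 past the limit, against 372 to 405 in Ctrl. Genes of germ cells summed to 573, 265 and 655 FPKM in cKO 1, 2 and 3 and to 182, 297 and 531 in Ctrl, and genes of the mesonephros and ducts to 45.2, 59.8 and 39.7 in cKO. *Dazl* and *Dppa3* passed the unadjusted limit among the 8 germ cell genes, both higher in cKO, as were 2.68% of all genes tested. Both calls were lost without Ctrl 1, Ctrl 2 or cKO 3, and that of *Dazl* also without cKO 1. The 8 stroma, 5 endothelium and 6 red blood cell genes gave 0 past the limit, and haemoglobin took 0.388 to 1.69% of reads in Ctrl and 0.129 to 0.796% in cKO. The part of these cell types in the Hox levels was not tested.

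Among the partners of Hox proteins, all 9 PBC and MEIS genes were tested and 1 rose, where 2.68% of all genes tested rose. *Pbx3* was at 21.6, 20.1 and 24.5 FPKM in Ctrl and 35.7, 23.0 and 34.2 in cKO (log2 fold change 0.45, SE 0.19, limma p = 0.0494, adjusted p = 0.978, exact permutation p = 0.2). The groups overlapped because cKO 2 lay below Ctrl 3. Its call was lost when any library other than cKO 2 was left out, and under median-ratio scaling, quantile normalization, a minimum of 1 FPKM and no intensity trend. The 9 genes had a median log2 fold change of 0.03.

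Of 16 Polycomb genes, 1 rose and 0 fell, against 2.68% and 1.75% of all genes tested. *Jarid2*, a subunit that recruits the histone methyltransferase complex PRC2, was at 10.3, 11.4 and 12.4 FPKM in Ctrl and at 17.6, 12.8 and 18.1 in cKO (log2 fold change 0.46, SE 0.16, limma p = 0.0248, adjusted p = 0.978, exact permutation p = 0.1). All cKO libraries were above Ctrl, with cKO 2 nearest to it. Without Ctrl 1, Ctrl 2, cKO 1 or cKO 3 the call was lost. The catalytic subunit gene *Ezh2* had a log2 fold change of 0.08 and its partners *Suz12* and *Eed* of -0.04 and -0.01. Of 11 Trithorax and H3K27 demethylase genes, 0 passed the limit, against 4.43% of all genes tested. The log2 fold change was above 0 for 10 of them and for 8222 of the 17180 genes tested. *Kmt2c* had the largest, 0.61 (SE 0.34, adjusted p = 0.978). Leaving out cKO 2 brought 4 of them past the limit, in a fit in which 14.5% of all genes passed.

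Of 8 caudal, ParaHox and Evx homeobox genes, the relatives of the Hox genes, *Cdx1* alone was tested. It had 5, 32 and 63 reads in Ctrl and 17, 3 and 39 in cKO, and the groups overlapped. *Cdx4*, *Gsx1* and *Gsx2* were listed at 0 in all libraries. *Evx2*, the homeobox gene beside *Hoxd13*, had 5 reads in Ctrl and 4 in cKO.

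Within or beside the clusters, 48 non-coding rows were found, of which 18 were at 0 in all libraries and 13 were tested. Of these 1 rose and 0 fell, a single call beside the 2.68% and 1.75% of all genes. Gm28793, on the opposite strand between *Hoxd10* and *Hoxd9*, was at 1.29, 1.79 and 1.52 FPKM in Ctrl (8, 12 and 11 reads) and at 2.19, 2.60 and 2.73 in cKO (14, 18 and 16 reads). Its log2 fold change was 0.47 (SE 0.15, limma p = 0.0156, adjusted p = 0.978, exact permutation p = 0.1). The call was lost under voom on its reads and without Ctrl 1 or cKO 3. *Haglr*, a long non-coding RNA of HoxD, had 73, 72 and 83 reads in Ctrl and 81, 93 and 100 in cKO, and its FPKM did not overlap between groups (log2 fold change 0.21, adjusted p = 0.978). *Hoxd3os1* had a log2 fold change of -0.02. Gm14424, a lincRNA of HoxD under the minimum level, had 5, 4 and 6 reads in Ctrl and 2, 0 and 0 in cKO, with cKO below and no overlap. Of all genes tested, 4.59% had cKO above with no overlap and 4.10% had cKO below. These shares were not computed for genes under the minimum level.

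In HoxA, the groups did not overlap for 2 genes on the strand opposite *Hoxa3*, both with cKO below. Of all genes tested, 4.10% had cKO below with no overlap, a share that was not computed for genes under the minimum level. *Hoxaas2*, which was under the minimum level, had 37, 29 and 23 reads in Ctrl and 8, 16 and 6 in cKO, and its groups did not overlap. Its summed reads gave a cKO to Ctrl ratio of 0.348 with a counting interval of 0.222 to 0.531. Gm15050 had 17, 16 and 19 reads in Ctrl and 5, 12 and 13 in cKO (log2 fold change -0.46, adjusted p = 0.978). Gm15050 is not among the annotated genes that share exon bases with *Hoxa3*, whereas *Hoxaas2* is. *Hoxaas3*, which shares exon bases with *Hoxa3* too, had a log2 fold change of -0.05. *Hoxa11os*, also under the minimum, had 0, 1 and 2 reads in Ctrl and 4, 6 and 4 in cKO, with cKO above and no overlap. *Hottip*, the non-coding RNA at the 5′ end of HoxA, was listed at 0 in all libraries. *Hotair* of HoxC had 2 reads in Ctrl and 1 in cKO.

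**Figure D4:**
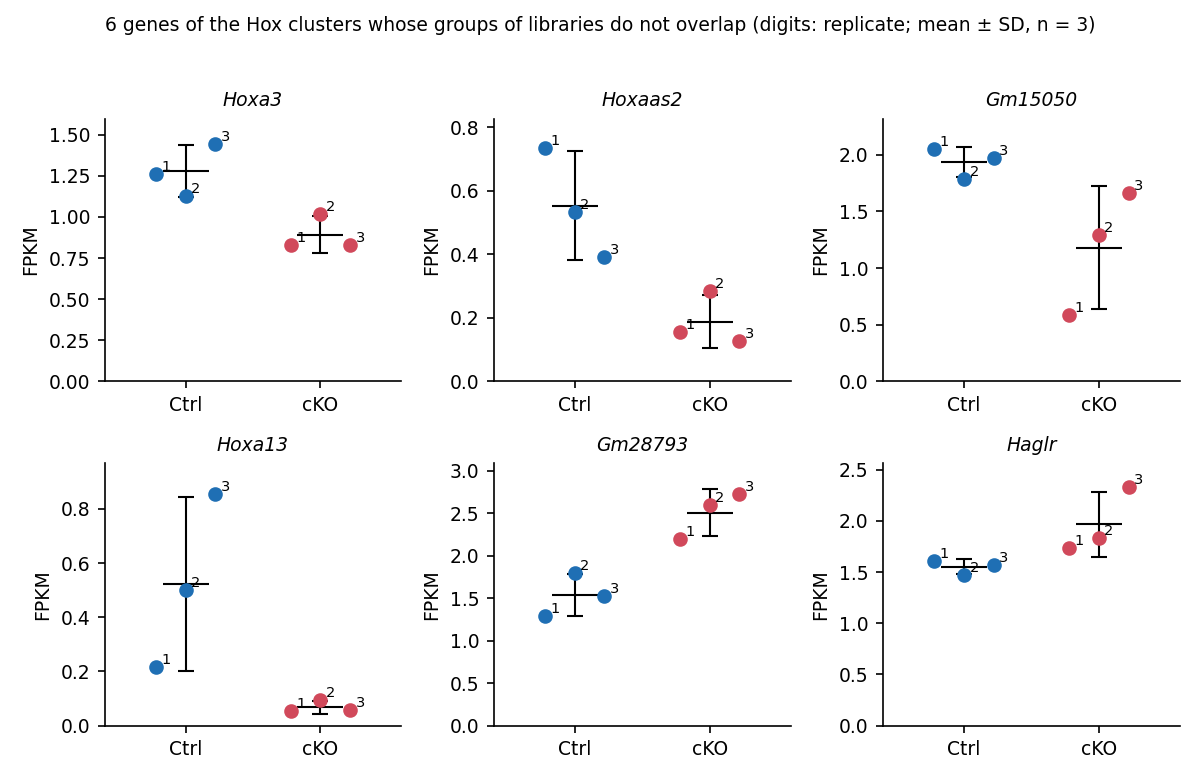
FPKM of 6 genes of the Hox clusters whose Ctrl (blue) and cKO (red) libraries do not overlap, with mean ± SD over 3 libraries, digits for the replicate and each axis from 0. The genes were picked for that separation, and groups did not overlap for 8.68% of all genes tested. That share was not computed for genes under the minimum level. *Hoxa11os* (cKO above) and Gm14424 (cKO below), whose libraries do not overlap either, are not shown. *Hoxa3*, *Hoxaas2*, Gm15050 and *Hoxa13* are lower in cKO, Gm28793 and *Haglr* higher, and *Hoxa13* in cKO stays below 0.1 FPKM.

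The microRNA genes of the clusters were read as gene rows after selection of polyadenylated RNA, so mature microRNAs were not measured. The row of *Mir196a-1* had 27, 86 and 24 reads in Ctrl and 35, 64 and 18 in cKO, and the lincRNA Gm53 beside it summed to 1332 reads in Ctrl and 1286 in cKO (log2 fold change -0.01). *Mir196b* and *Mir10a* were listed at 0, *Mir196a-2* had 1 read in all and *Mir10b* had 2. The 9 Hox genes with a miR-196 seed match and *Hoxb8* included 8 tested genes, of which 0 passed the unadjusted limit.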

How the data were processed

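Libraries of polyadenylated RNA from 3 Ctrl and 3 cKO ovaries at 16.5 dpc were grouped by the sample labels. Alignment to GRCm38 (mm10) was by HISAT2 2.0.5 and counting by featureCounts, and the authors deposited one FPKM value per gene and library, with no further normalization stated. Annotation release and strand setting: not given in the sources used here. Once gene length was removed, 100% of values were whole reads to within 0.05. The model was limma 3.58.1 (R 4.3.3) on log2(FPKM + 1), with an intensity trend, Benjamini-Hochberg adjustment over the 17180 genes with a mean of at least 0.5 FPKM, and exact permutation tests for single genes. Counting intervals of read ratios cover 95%. On simulated libraries of 17232 genes, 91.8% of 2-fold and 100% of 4-fold changes passed an unadjusted p of 0.05, as did 4.92% of unchanged genes. The changed genes were drawn only from genes with more reads than low tested Hox genes such as *Hoxa6* had (7 to 23 per library). The spread between libraries was 1 fixed setting for every gene. The recovered shares therefore do not apply to tested Hox genes with few reads. Tables and figures were made in Python 3.11.15 (pandas 2.3.3, numpy 2.4.6, matplotlib 3.10.9, scipy 1.17.1).

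The members and gene lists were chosen with earlier results of these data known. Genes named in full were *Srsf1*, the 2 highest Hox genes of each cluster, Hox genes past the unadjusted limit or with groups that do not overlap, and list members past that limit. Further genes, among them the non-coding genes with groups that do not overlap and the limb and duct genes under the minimum level, were named after their values were seen. Alternatives were other pseudocounts, minimum levels, scalings, voom on recovered reads, no trend, a replicate block and each library left out. Those with voom and no minimum level, and those leaving out a library with no minimum level, were added after seeing the data. UTRs were read from GENCODE M21. Single values of 1 Hox gene and 1 partner gene are not reported here, although counts and sums include them.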

Additional observations from a re-analysis of the deposited data

How the results depend on the processing

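No Hox gene passed an adjusted p below 0.05 under any alternative run. At an unadjusted p below 0.05, Hox genes higher in cKO numbered 0 to 1 with each library left out, the 1 being *Hoxc9* without cKO replicate 3, and 0 under the other alternatives. Hox genes lower in cKO numbered 0 with each library left out and 1, *Hoxa13*, with no minimum FPKM and with voom and no minimum FPKM. The number of all genes higher in cKO was 460 and ranged from 201 to 1457 with each library left out, and that of genes lower in cKO was 301 and ranged from 163 to 1036. Without cKO replicate 2, 14.5% of all genes passed, the largest of these shares. With no minimum FPKM the counts were 736 and 595, and with voom and no minimum FPKM 941 and 778. The median log2 fold change of the Hox genes ranged from -0.11 to 0.07 with each library left out. Of 408 values for the 26 tested Hox genes under alternatives, 407 kept their side of the unadjusted limit. The 14 Hox rows under 0.5 FPKM, *Hoxa13* among them, are not in that count. The direction of 16 of the 26 tested Hox genes turned with at least 1 library left out, none of them past the limit, and without cKO replicate 3 it turned for 7, among them *Hoxd9* (to 0.18) and *Hoxc6* (to 0.23). Under the other alternatives it turned for 1, *Hoxb8*, to 0.02 with quantile normalization. With the replicate number as a block, 0 Hox genes passed, and 434 genes were higher and 247 lower. Deviations of libraries with the same number had correlations of -0.39, -0.03 and 0.12, so the numbers were not taken to pair the libraries. Depth limits the 14 Hox rows under 0.5 FPKM, 8 of the 40 being at 0 in at least 1 library.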
